A study of Mus musculus with 26 samples.

Results

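10 genes that encode heat shock proteins and their partners were followed in the left ventricle of 26 mice: Hspa1a, Hspa1b, Hspa8, Hsph1, Dnajb1, Hsp90aa1, Hspb1, Bag3, Hspd1 and Hspe1. They were taken by name from the 56941 genes of the count table, with earlier results of these data known. Of those 56941 genes, 29156 had a count in at least 1 library. All 10 passed the filter on low counts and were among the 15357 genes tested. The series asks whether B55α, a regulatory subunit of protein phosphatase 2A encoded by Ppp2r2a, shapes cardiac gene expression differently in males and females. The control group (Ctrl, 6 males and 6 females) had the genotype aMHC-Cre0/0-Ppp2r2aL/L, with both Ppp2r2a alleles floxed and no Cre. The knockout group (cKO, 7 males and 7 females) had the genotype aMHC-CreTg/0-Ppp2r2aL/L, with the same floxed alleles and a Cre transgene under the aMHC promoter, which is active in cardiomyocytes. Other cardiac cells therefore keep Ppp2r2a. Every mouse, controls included, received saline from a minipump for 2 weeks and was 12 to 16 weeks old. The strain tag reads C57BL/6N, whereas the design text describes a mixed background in which the floxed line is C57BL6/N and the aMHC-Cre line is FVB. Mice with Cre but without floxed alleles were not analysed here, so the loss of Ppp2r2a, the presence of Cre and FVB sequence carried with it cannot be told apart.

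Total counts per library ran from 14403102 to 30867399, and every RNA integrity number was at least 7.7. Expression is given as CPM, a gene's count scaled to a fixed library total after edgeR's TMM factors. Ppp2r2a fell in cKO males (log2 fold change -1.40 ± 0.14 SE) and in cKO females (-1.58 ± 0.14 SE), with 7 of 7 cKO mice of each sex below every Ctrl mouse of that sex. Ctrl males 3 and 6 had the least Ppp2r2a of the Ctrl mice (24.95 and 24.1 CPM), against a median of 42.2 CPM in Ctrl males. The 7 cardiomyocyte markers (Myh6, Actc1, Tnnt2, Tnni3, Ryr2, Pln and Myl2) summed to between 55050 and 76410 CPM and the 3 atrial markers (Sln, Myl7 and Myl4) to between 1.135 and 2.309 CPM. Nothing in the labels ties mice to litters or days, so p-values measure the spread between these mice.

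Heat shock proteins bind unfolded or partly folded polypeptides and keep them from aggregating, and many of them use cycles of ATP binding to refold their clients. Under heat or other proteotoxic stress, heat shock factor 1 (encoded by Hsf1) binds heat shock elements in the promoters of these genes and raises their transcription within minutes. In cardiac muscle the family protects sarcomere proteins, and loss of BAG3 or of small heat shock protein function is a known cause of cardiomyopathy. In the cytosol, HSP70 proteins (the inducible Hspa1a and Hspa1b, the constitutive Hspa8) work with a J-domain partner that delivers clients (Dnajb1) and with nucleotide exchange factors that release them (Hsph1, Bag3). Hsp90aa1 encodes the inducible cytosolic HSP90, Hspb1 the small heat shock protein HSP27, and Hspd1 and Hspe1 the HSP60 and HSP10 parts of the mitochondrial chaperonin.

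The heat shock element is built of inverted GAA units, and it is shown here because several of the genes below varied together between mice. RefSeq promoter windows (GRCm38.p6, 250 bases before to 50 after the start site) were held for 8 of the 10 genes, all but Hspa8 and Hsp90aa1, in 11 windows. Both 2-unit forms, GAANNTTC and TTCNNGAA, read the same on either strand, and 8 of the 11 windows, those of 7 of the 8 genes (all but Dnajb1), held at least 1 of them, against 15.1% of 32851 windows of that length over all genes. A 3-unit form adds a further inverted unit, GAA or TTC, after 2 more bases of any kind, so each 3-unit match also contains 2-unit matches. 3-unit forms were found in 4 of the 11 windows, belonging to Hsph1, Hspd1 and Hspe1, against 0.603% of all windows. These windows are not all separate DNA. The 2 Hsph1 windows overlap and hold the same matches, and so do 1 Hspd1 window and the Hspe1 window. Both counts of windows therefore exceed the number of distinct sites. In Hsph1 the 3-unit form lay after the start site, and in Bag3 the 2-unit form did too. Capitals below mark the matched units, and each sequence reads 5′ to 3′ on the strand of its gene.
Hspa1a (chr17:34972223-34972290, minus strand): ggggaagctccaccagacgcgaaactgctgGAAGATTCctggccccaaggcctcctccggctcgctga
Hspb1 (chr5:135887772-135887859, plus strand): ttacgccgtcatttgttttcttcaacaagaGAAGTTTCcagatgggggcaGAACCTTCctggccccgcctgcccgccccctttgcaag
Hsph1 (chr5:149636351-149636380, minus strand): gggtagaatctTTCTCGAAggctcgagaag
Hspe1 (chr1:55088053-55088082, plus strand): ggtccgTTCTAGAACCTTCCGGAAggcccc
Hspd1 (chr1:55088053-55088082, minus strand): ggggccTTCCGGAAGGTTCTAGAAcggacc
The Hspa1b stretch (chr17:34959305-34959372, minus strand) is identical to that of Hspa1a, and the 300-base windows of these neighbouring genes differ at 4 positions (98.7% identical). The Hspe1 and Hspd1 sequences are one piece of DNA read from its 2 strands. It lies in the 216 bases between the Hspe1 start site (55088148) and the farther of the Hspd1 start sites (55087932). From these 2 sites the genes are transcribed away from each other. The nearer Hspd1 start site (55088243) lies on the other side of the Hspe1 start site, and its window held no match. The printed bases of Hspd1, Hspe1 and Hsph1 also fall within annotated exons of Hspd1 or Hsph1 in GENCODE M21. A match is a description of these letters and does not show that a factor was bound in these hearts.

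Levels between genes are compared as median CPM per kb of the longest annotated transcript. The order was Hspa8 (397), Hspb1 (298), Hspd1 (152), Bag3 (115), Hspe1 (98.2), Hsp90aa1 (45.9), Hsph1 (16.7), Dnajb1 (6.62), Hspa1b (1.45) and Hspa1a (1.02). The constitutive HSP70 and the small heat shock protein thus stood at the top and the inducible HSP70 pair at the bottom. Hspb1 and Hspd1, and likewise Hsp90aa1 and Hsph1, had ranges over the 26 mice that did not overlap, whereas the other 7 neighbouring pairs overlapped. Bag3 was above Hspe1 in 19 of 26 mice and Dnajb1 above Hspa1b in 24 of 26, so the order of these pairs changed between mice. Hspa1a and Hspa1b are uncertain as separate genes: 52.7% of all 75-base stretches of the Hspa1a transcript and 55.8% of those of Hspa1b also occur in the other.

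Expression of the inducible HSP70 genes varied far more between mice of one group than that of most genes. Hspa1a ran from 0.711 to 40.3 CPM (16 to 1039 counts), a 56.7-fold range, and Hspa1b from 1.55 to 42.6 CPM, a 27.6-fold range. The within-group SD of log2 CPM was 1.12 for Hspa1a and 0.95 for Hspa1b, at percentiles 99.6 and 99.3 of the genes tested, whose median SD was 0.19. Hsph1 (2.98-fold), Hsp90aa1 (2.62-fold), Dnajb1 (2.34-fold) and Hspb1 (1.93-fold) had intermediate ranges. Hspa8 (1.67-fold), Hspe1 (1.59-fold), Bag3 (1.52-fold) and Hspd1 (1.36-fold) were the steadiest, and the SD of Hspd1 (0.10) lay at percentile 16.6.

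**Figure D1:**
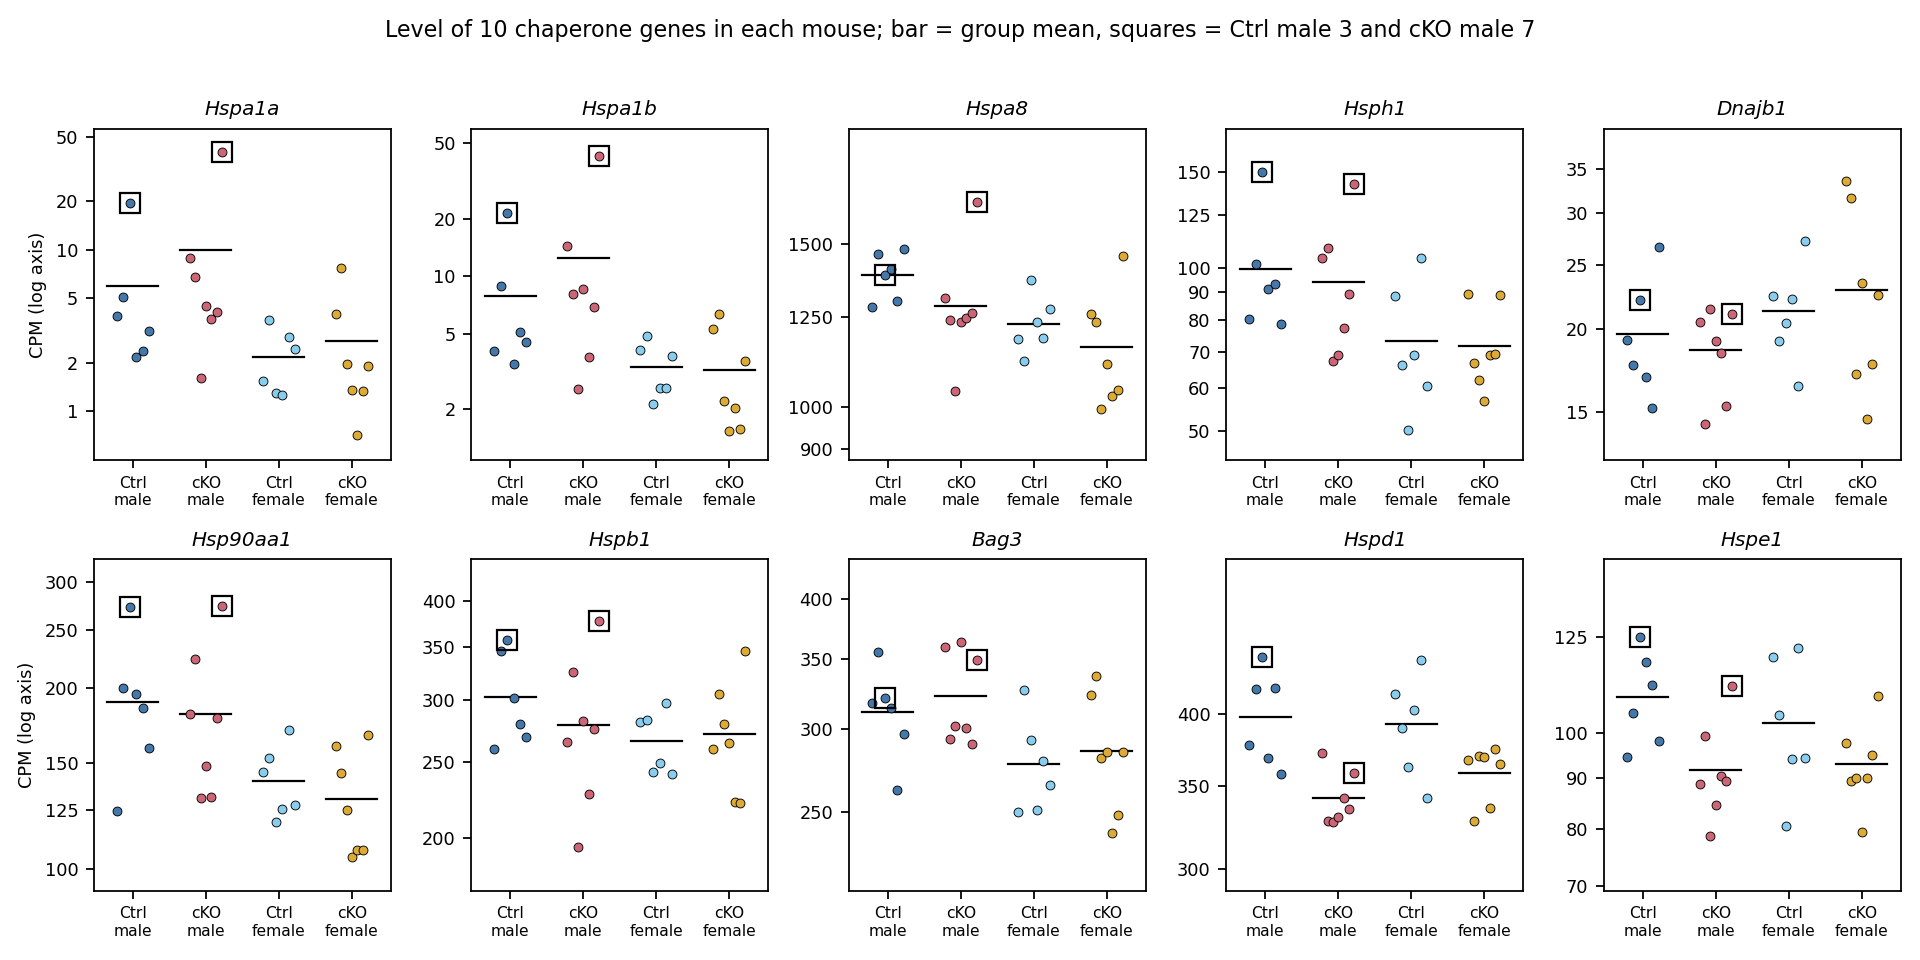
Level of each of the 10 genes in CPM (log axis, scaled to each gene) in 26 mice by group; points are mice, bars are group means and squares mark Ctrl male 3 and cKO male 7. These 2 males have the highest Hspa1a (19.4 and 40.3 CPM) and Hspa1b (21.5 and 42.6 CPM) of all mice, while the groups overlap for every gene.

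2 male libraries, 1 of each genotype, stood apart. Ctrl male 3 had 19.4 CPM of Hspa1a and 21.5 CPM of Hspa1b, against 2.17 to 5.07 and 3.46 to 8.87 CPM in the other Ctrl males. cKO male 7 had 40.3 CPM of Hspa1a and 42.6 CPM of Hspa1b, against 1.61 to 8.95 and 2.57 to 14.4 CPM in the other cKO males. Each of them was the highest of its group for 7 of the 10 genes, and both were so for Hspa1a, Hspa1b, Hsph1, Hsp90aa1, Hspb1 and Hspe1. The nucleotide exchange factor Hsph1 reached 150 CPM in Ctrl male 3 and 142 CPM in cKO male 7, against 78.6 to 102 and 67.3 to 109 CPM in the rest of their groups. Hsp90aa1 stood at 273 and 274 CPM, against 125 to 200 and 131 to 223 CPM. Hspa8 separated the pair: it ranked 4 of 6 in Ctrl male 3 (1389 CPM) and the highest of all 26 mice in cKO male 7 (1664 CPM). Bag3 and Dnajb1 were the highest in neither. Cirbp, which encodes a cold-inducible RNA-binding protein, was the lowest of its group in both, at 29.3 and 30.6 CPM against 37.5 to 49.1 and 31.7 to 42.3 CPM. Rbm3, which encodes another such protein, was the lowest in neither. It ranked 5 of 6 in Ctrl male 3 (45.9 CPM) and 2 of 7 in cKO male 7 (51.5 CPM), counted from the highest. The immediate-early genes Fos and Egr1, which respond to many acute stimuli, were the lowest of their group in Ctrl male 3 (0.932 and 7.66 CPM) and within the range of their group in cKO male 7 (1.16 and 10.7 CPM). Mitochondrially encoded counts (17.4% and 18.0%), genes detected and TMM factors of both libraries lay inside the ranges of their groups. cKO male 7 was the deepest library of its group by total counts (25447630, against 17372414 to 24633205), whereas Ctrl male 3 lay within the depths of its group. Erythrocyte marker sums were 1400 CPM in Ctrl male 3, the highest of Ctrl males (769 to 1400), and 1398 CPM in cKO male 7, where another cKO male reached 1939 CPM. The part of depth and of blood in the high values was not tested. Results that rest on males are given below with and without this pair.

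Most pairs of the 10 genes varied together between mice of a group. After the group mean was taken from log2 CPM, 40 of 45 pairs had a positive Pearson r over 26 mice, with a median r of 0.485 and a range from -0.21 to 0.91. Of the 45, 18 pairs passed an adjusted p of 0.05 for both Pearson's r and Spearman's rho, each from 100000 two-sided permutations of mice within groups, adjusted over 65 pairs. No matching share for pairs of other tested genes is given, so these counts do not show co-variation particular to the 10 genes. Without the 2 males that stood apart, the median r was 0.40. By group, r was positive for 39 of 45 pairs in Ctrl males (median 0.45), 41 in cKO males (0.65), 38 in cKO females (0.57) and 26 in Ctrl females (0.24), each over 6 or 7 mice, and the difference between groups was not tested. In Ctrl females Hspa8 had a negative r with 8 of its 9 partners, down to -0.81 with Hspb1, -0.79 with Hsp90aa1 and -0.78 with Hspe1, and Dnajb1 with 7 of 9, down to -0.72 with Hspb1. The values of 1 mouse come from 1 library and 1 dissection, and the part of what they share in these correlations was not tested.

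High correlations joined the HSP90 gene, the exchange factor Hsph1, the small heat shock protein, the HSP10 gene and the inducible HSP70 pair. Hsph1 and Hspe1 had r = 0.887 and rho = 0.825 (adjusted permutation p = 0.00013 and 0.000163), with r between 0.79 and 0.95 within the 4 groups and 0.86 without both males. Hsp90aa1 and Hspb1 had r = 0.86 and rho = 0.85 (the same adjusted permutation p-values), and r = 0.81 without both males or 0.82 without the 2 mice farthest from the median of Hsp90aa1. For Hsp90aa1 and Hsph1, r was 0.86 and rho 0.79, and r stayed at 0.77 without the pair. Each of these r values has an unadjusted p of 1e-05, the smallest that 100000 permutations can give. Hspa1a and Hspa1b had r = 0.91, and the part of shared reads in this value was not tested. Hspa1b against Hsp90aa1 had r = 0.80 and rho = 0.80, with adjusted permutation p-values of 0.000217 and 0.00039, and r = 0.66 without both males. Hspa1a with Hsph1 rested on the 2 males more, with r = 0.65 over all mice and 0.38 without them.

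Dnajb1 and Bag3 had lower correlations with most of these genes. Dnajb1 had r = -0.003 with Hsph1, 0.04 with Hspb1, 0.099 with Hsp90aa1 and -0.21 with Hspd1, though in cKO females it had 0.66 with Hsp90aa1 and 0.48 with Hspb1. Bag3 had r = 0.62 with Hspa1a (adjusted permutation p = 0.00508; r = 0.71 without both males) but 0.10 with Hsph1 and -0.01 with Hspe1. With Hspb1 (r = 0.445, rho = 0.46) and Hsp90aa1 (r = 0.33, rho = 0.40) the Bag3 values lay between these, and neither r passed the adjustment (permutation p = 0.0674 and 0.164). Hspd1, the HSP60 gene, had its highest r with Hsph1 (r = 0.65, rho = 0.625; adjusted permutation p = 0.00345 and 0.00775; r = 0.59 without both males). It had r = 0.54 and rho = 0.52 with its partner Hspe1 (adjusted permutation p = 0.0325 and 0.0467). With Hspa8, it had r = -0.002. Set against the mean z score of the other 9 genes, r was highest for Hspa1b (0.88), Hsp90aa1 (0.87), Hspa1a (0.86), Hspb1 (0.81) and Hsph1 (0.78). Hspe1 (0.625), Hspa8 (0.60), Bag3 (0.44), Hspd1 (0.36) and Dnajb1 (0.22) followed. For Hspa1a and Hspa1b the other 9 genes include the near-identical copy, and the part of shared reads in their values was not tested. Both males that stood apart enter all of these values.

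**Figure D2:**
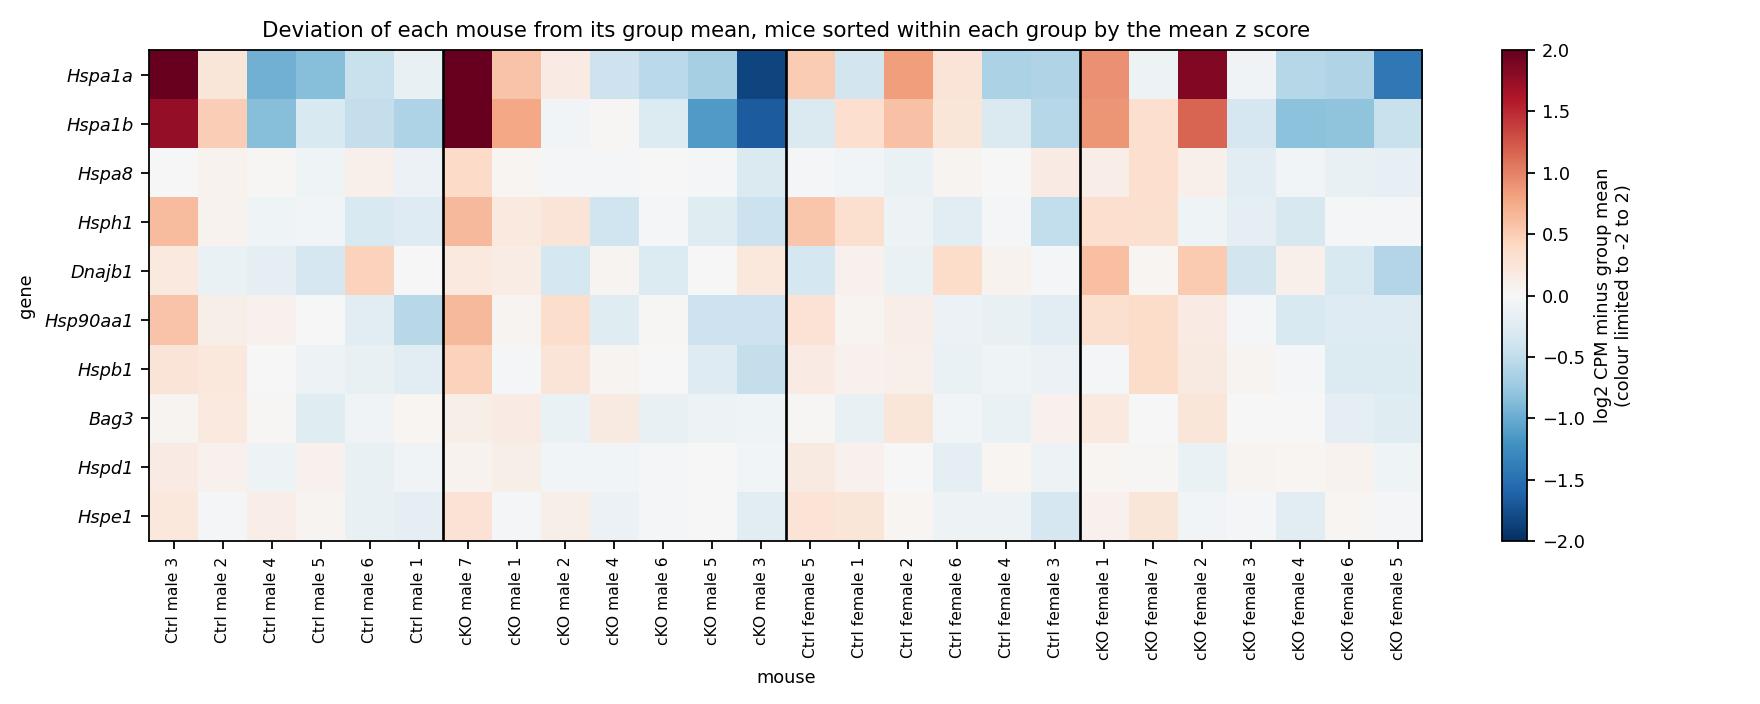
Colour gives log2 CPM minus the group mean for 10 genes (rows) in 26 mice (columns, sorted within each group by the mean z score of the 10 genes; colour is limited to -2 to 2). The left column of the Ctrl males (mouse 3) and of the cKO males (mouse 7) is above the group mean in most rows, and cKO male 3 is below it in most.

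Cirbp moved the other way. Its r was negative with all 10 genes, from -0.63 with Hsp90aa1 (adjusted permutation p = 0.00412; rho = -0.65, adjusted p = 0.00775) to -0.19 with Dnajb1. Hspb1 (r = -0.585, rho = -0.61) and Hsph1 (r = -0.56, rho = -0.53) also passed in both measures, with adjusted permutation p-values of 0.0112 and 0.0138 for Hspb1 and 0.00803 and 0.0325 for Hsph1. Without both males these 3 values were -0.50, -0.49 and -0.39. Without the 2 mice farthest from the median of each chaperone gene, r with Cirbp was -0.60 for Hsp90aa1, -0.77 for Hspb1 and -0.39 for Hsph1, while the weak value of Bag3 (-0.20) went to 0.017. Rbm3, the other cold-inducible RNA-binding protein gene, passed with Hspd1 alone (r = -0.565, rho = -0.54; adjusted permutation p = 0.0174 and 0.0315). Its r was also negative with Hsph1 (-0.35), Hspe1 (-0.33), Hspb1 (-0.12) and Hsp90aa1 (-0.09). With Dnajb1 (0.39), Bag3 (0.25), Hspa1b (0.16), Hspa1a (0.15) and Hspa8 (0.08) it was positive, so Rbm3 did not share the pattern of Cirbp.

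**Figure D3:**
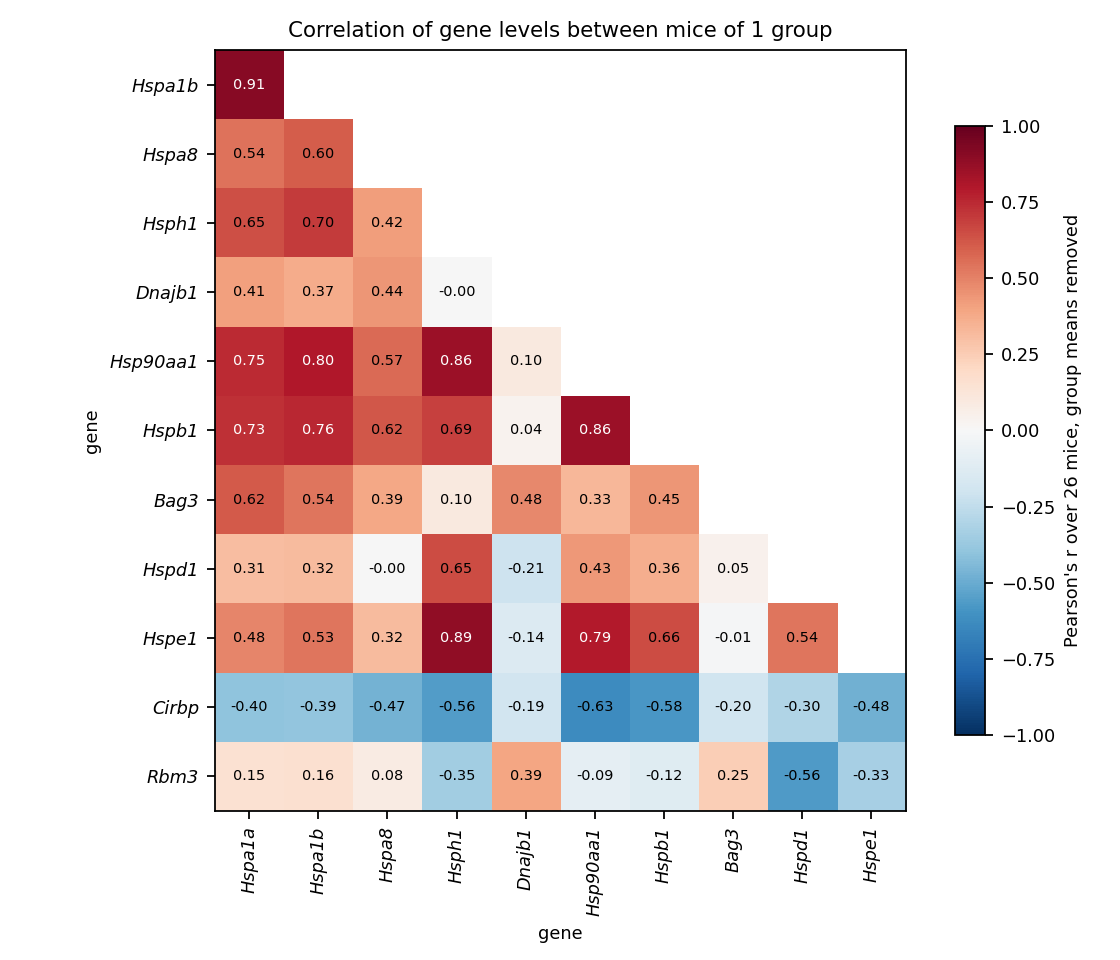
Pearson's r over 26 mice, group means removed, for each pair of the 10 genes and for each gene with Cirbp and Rbm3; red is positive and blue negative. Hsph1 with Hspe1 (0.89) and Hsp90aa1 with Hspb1 (0.86) are among the darkest cells, and the Cirbp row is negative throughout.

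Genes outside the 10 were ranked by the likeness of their group-centred log2 CPM to the mean z score of the 10, over the same 26 mice. The 5 most alike of 15347 were Hsp90ab1 (r = 0.86), the constitutive HSP90 gene, Cct3 (0.86), a subunit of the TRiC chaperonin, Dnaja4 (0.85), a J-domain co-chaperone, Ahsa2 (0.85), of the HSP90 activator family, and P4ha1 (0.84), a collagen prolyl hydroxylase. Without both males their r was between 0.71 and 0.85. The 5 least alike were Cttnbp2 (-0.78), Zfp944 (-0.725), Ppp2r5d (-0.72), Phf12 (-0.71) and Zer1 (-0.71). Ppp2r5d encodes another regulatory subunit of protein phosphatase 2A, of the B56 family. Stip1, the HSP70-HSP90 organising protein, ranked 7 (r = 0.83), Ahsa1 10 (0.78) and Hsf1 788 (0.42), while Cirbp ranked 15276 (-0.59). These ranks are descriptions, and genes that share a library are not independent.

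In the comparison of genotypes, 1 of the 10 genes changed, and it encodes a part of the mitochondrial chaperonin. Hspd1 was lower in cKO hearts over both sexes, by 0.17 ± 0.04 (SE) on the log2 scale, with an edgeR adjusted p of 0.0283. It was the single gene of the 10 called in the mean genotype effect, where 1.33% of all genes tested were called (0.866% as lower). In Ctrl males Hspd1 ran from 357.5 to 444 CPM (median 398) and in cKO males from 327 to 372 CPM (median 335), and all 7 cKO males lay below the Ctrl mean of 398 ± 35 (SD, n = 6). In Ctrl females it ran from 342 to 442 CPM (median 396) and in cKO females from 328 to 374.5 CPM (median 367), and all 7 cKO females lay below the Ctrl mean of 392 ± 36 (SD, n = 6). The groups overlapped in both sexes, with 5 of 7 cKO males and 2 of 7 cKO females below every Ctrl mouse of their sex. Within 1 sex neither difference passed: the log2 fold change was -0.22 ± 0.06 (SE) in males (edgeR adjusted p = 0.0714) and -0.13 ± 0.06 (SE) in females (adjusted p = 0.941). DESeq2 (adjusted p = 0.012) and voom (0.0387) did call the male difference.

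Hspe1, the HSP10 partner, gave values of like size that did not pass. Its CPM ran from 94.5 to 125 (median 108) in Ctrl males, from 78.7 to 112 (median 89.4) in cKO males, from 80.5 to 122 (median 99.3) in Ctrl females and from 79.4 to 109 (median 90.04) in cKO females. The log2 fold change was -0.24 ± 0.09 (SE) in males (edgeR adjusted p = 0.214), -0.14 ± 0.09 (SE) in females (adjusted p = 0.975) and -0.19 ± 0.06 (SE) over both sexes (adjusted p = 0.131). 6 of 7 cKO mice of each sex were below the Ctrl mean.

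The call on Hspd1 was narrow. It was lost when each of 4 mice was left out (Ctrl male 5, Ctrl females 1 and 4 and cKO female 5; edgeR adjusted p from 0.0518 to 0.0619) and when GC content and transcript length were adjusted for (-0.14, adjusted p = 0.0894). Without Ctrl male 3 and cKO male 7 it held (-0.16, adjusted p = 0.0444). In whole ventricle, fewer cells of a type and less RNA per cell cannot be told apart. Summed cardiomyocyte markers ran from 62630 to 70140 CPM in Ctrl males and from 55050 to 65720 in cKO males, and from 63420 to 76410 in Ctrl females and from 60170 to 71740 in cKO females. All 7 of those markers had a negative mean genotype effect (median -0.10 on the log2 scale, 1 called), none was at 0, and their part in the Hspd1 difference was not tested. All 5 fibroblast markers had a positive mean genotype effect (median 0.11, 0 called). All 5 smooth muscle and pericyte markers had a negative one (median -0.07, 0 called). The part of these cell types was not tested either.

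Among 15 other mitochondrial chaperones and proteases, 14 had a negative mean genotype effect, against 48.4% of all genes tested, with a median of -0.08 on the log2 scale against 0.00 over all genes. Hspa9, the mitochondrial HSP70 that hands imported proteins to the chaperonin, was the 1 of them called: it fell by 0.16 ± 0.03 (SE) on the log2 scale (edgeR adjusted p = 0.0162), and all 7 cKO mice of each sex were below the Ctrl mean. Its CPM ran from 736 to 905 (median 828.7) in Ctrl males, from 664 to 768 (median 711) in cKO males, from 696 to 824 (median 788) in Ctrl females and from 665 to 746 (median 723) in cKO females. This call held in 9 of 9 alternative settings and in 26 of 26 fits without 1 mouse, with adjusted p up to 0.0471. The cardiomyocyte markers given above had negative values in this contrast too, and their part in the Hspa9 difference was not tested.

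**Figure D4:**
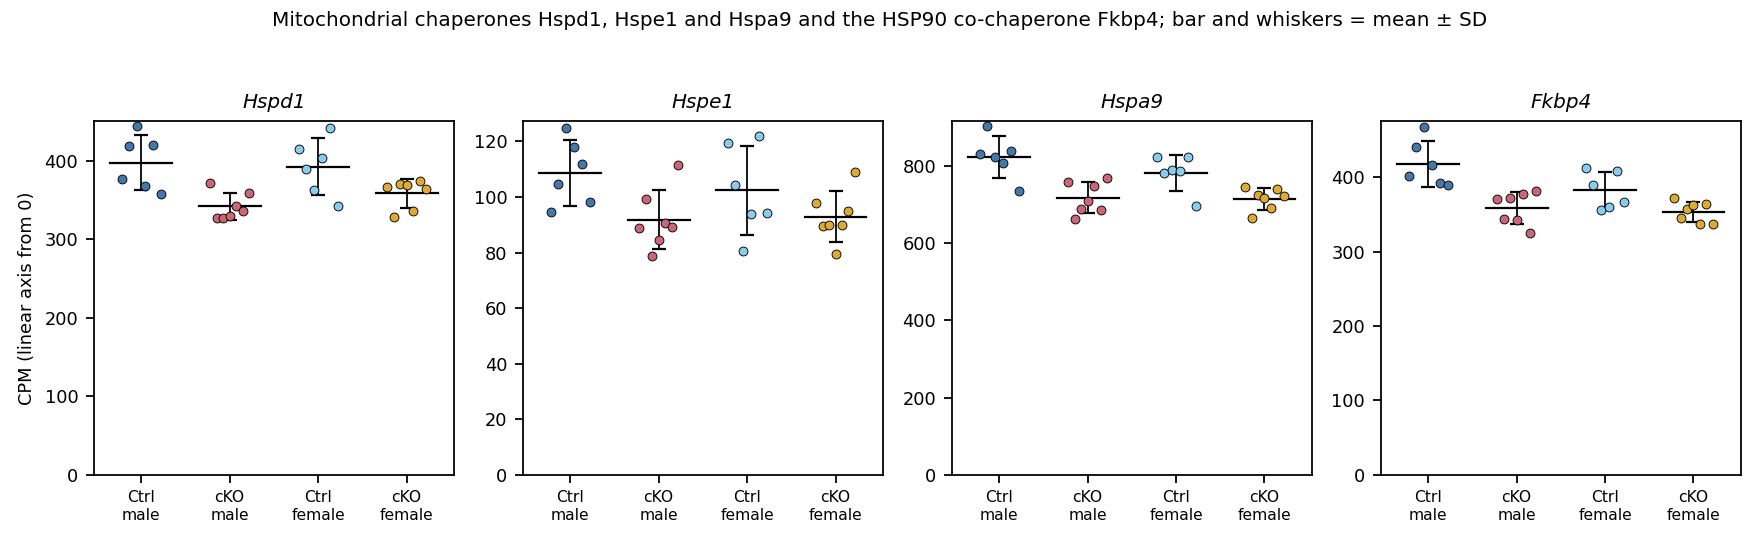
CPM (linear axis from 0) of Hspd1, Hspe1, Hspa9 and Fkbp4 in each mouse by group; points are mice, bars and whiskers are the mean and SD. In each sex the cKO mean is below the Ctrl mean for all 4 genes, and the groups overlap except Fkbp4 in males, where the highest cKO male (382 CPM) is below the lowest Ctrl male (390 CPM).

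The cytosolic chaperones showed no called difference between genotypes in either sex. In males 0 of 10 genes were called by edgeR, against 0.443% of all genes, with 2 of 10 at an unadjusted p under 0.05 (Hspd1 and Hspe1, both lower; 13.2% of all genes). DESeq2 and voom called 1 of the 10, Hspd1, among 399 and 211 genes in all, and DESeq2 gave Hspa1a and Hspa1b no adjusted p. In females 0 of 10 were called by edgeR, DESeq2 or voom, against 0.0326% of all genes, with 1 of 10 (Hspd1) at an unadjusted p under 0.05 against 5.15%. The median log2 fold change of the 10 was -0.07 in males and -0.05 in females, beside 0.00 over all genes in each.

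The inducible HSP70 pair had large but poorly determined values. Hspa1a had medians of 3.5 CPM in Ctrl males (2.17 to 19.4) and 4.51 CPM in cKO males (1.61 to 40.3), which gave 0.75 ± 0.65 (SE) on the log2 scale (adjusted p = 0.686 with edgeR). Without cKO male 7 that value was -0.28, without Ctrl male 3 it was 1.61 and without both it was 0.59 ± 0.46 (SE), none of them called, so single libraries set its size and sign. Hspa1b likewise had 0.66 ± 0.54 (SE; adjusted p = 0.656), -0.10 without cKO male 7, 1.27 without Ctrl male 3 and 0.52 without both. In females Hspa1a had medians of 1.98 CPM in Ctrl (1.26 to 3.66) and 1.91 CPM in cKO (0.711 to 7.7), and Hspa1b 3.22 CPM (2.13 to 4.88) and 2.21 CPM (1.55 to 6.37). The groups overlapped, and the log2 fold changes were 0.27 ± 0.78 and -0.07 ± 0.62 (SE). Summing the counts of both genes, which pools reads split between them but restores none that were dropped, gave 0.69 ± 0.58 in males and 0.08 ± 0.66 in females (SE; adjusted p = 0.671 and 0.9999).

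The other cytosolic genes were determined more closely. Hspa8, the constitutive HSP70, ran from 1281 to 1480 CPM in Ctrl males and from 1040 to 1664 in cKO males, with a log2 fold change of -0.11 ± 0.08 (SE) and, in females, -0.08 ± 0.08. Without both males the male value was -0.18 ± 0.08 (SE), with an unadjusted p of 0.0317 and an edgeR adjusted p of 0.345. Bag3, the exchange factor that routes clients to autophagy, had 0.05 ± 0.08 (SE) in males and 0.04 ± 0.08 in females. Hspb1 had -0.12 ± 0.12 in males and 0.03 ± 0.12 in females, Hsph1 -0.08 ± 0.19 and -0.03 ± 0.19, Hsp90aa1 -0.07 ± 0.18 and -0.10 ± 0.18, and Dnajb1 -0.07 ± 0.17 and 0.10 ± 0.17 (each ± SE). All 6 of these genes overlapped between genotypes in each sex.

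**Figure D5:**
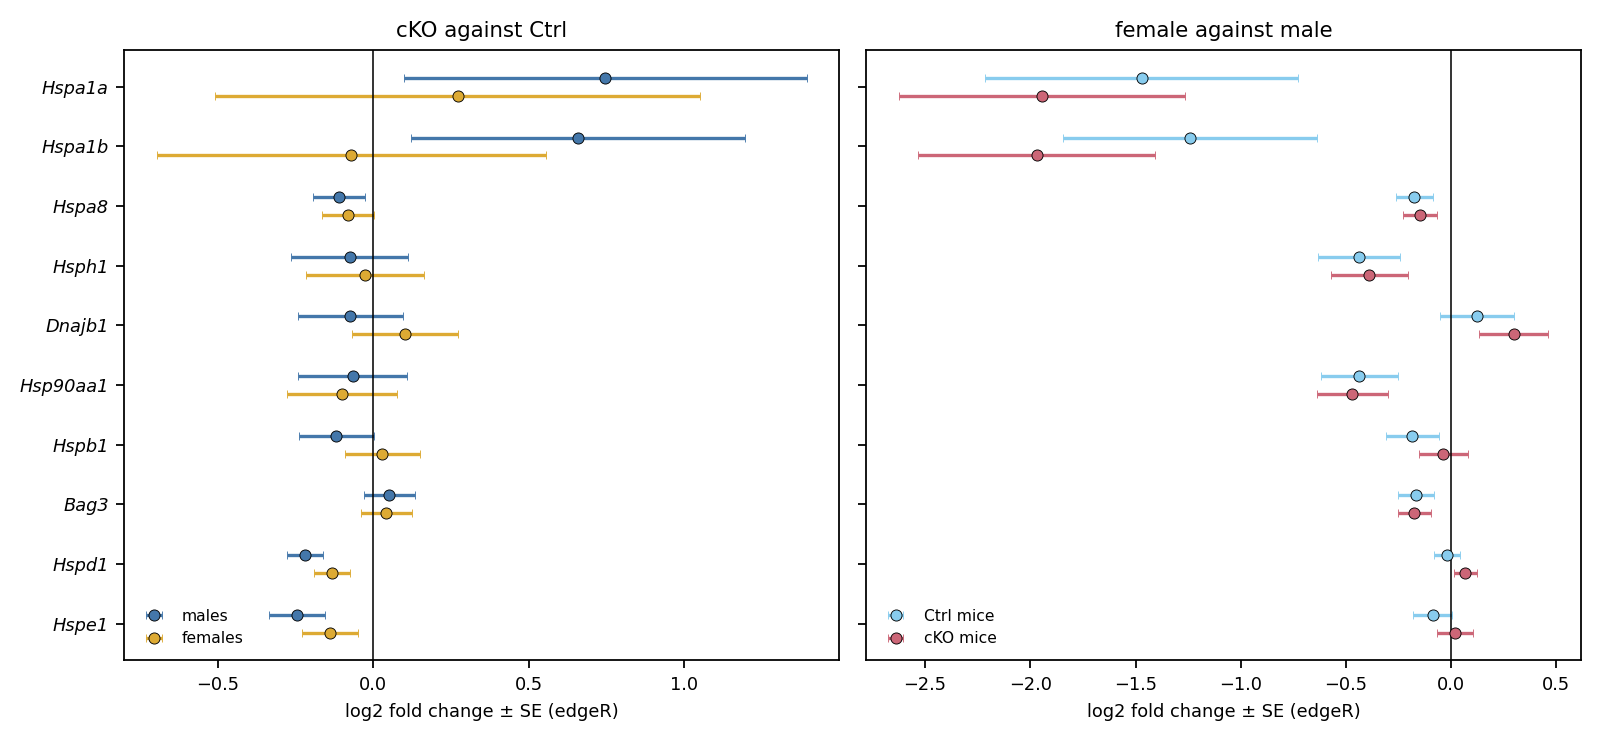
log2 fold change with its standard error from edgeR for each of the 10 genes, cKO against Ctrl by sex (left) and female against male by genotype (right). Hspa1a and Hspa1b carry the widest errors, Hspd1 (-0.22 and -0.13) and Hspe1 (-0.24 and -0.14) lie left of 0 in both sexes, and 9 of 10 genes lie left of 0 for females against males in Ctrl mice.

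Whether the genotype effect differed by sex was tested as an interaction. It was called for 0 of 10 genes by edgeR, DESeq2 or voom, 0 of 10 had an unadjusted p under 0.05 (3.96% of all genes did), and edgeR called 0% of all genes. The interaction was 0.09 ± 0.08 (SE) on the log2 scale for Hspd1, 0.10 ± 0.13 for Hspe1, -0.47 ± 1.01 for Hspa1a and -0.73 ± 0.82 for Hspa1b. It was 0.03 ± 0.12 for Hspa8 and -0.01 ± 0.12 for Bag3. The standard errors of the HSP70 pair were thus far wider than those of the other genes named here.

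Female values of Hspa1a, Hspa1b, Hsph1 and Hsp90aa1 lay below male values on average in both genotypes, but no gene of the 10 passed the adjustment with edgeR. In Ctrl mice 9 of 10 genes had a negative female-against-male value (48.85% of all genes did), all but Dnajb1. 0 of 10 were called by edgeR, DESeq2 or voom against 0.638% of all genes, with Hsp90aa1 and Hsph1 at an unadjusted p under 0.05 (12.1% of all genes). In cKO mice 7 of 10 were negative (48.1% of all genes were), 0 of 10 were called by edgeR or voom against 2.7% of all genes, and DESeq2 called Hspa1b. Hspa1b, Hspa1a, Hsp90aa1, Hsph1 and Bag3 had an unadjusted p under 0.05 (17.3% of all genes), all with the lower value in females.

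Hsp90aa1 ran from 125 to 273 CPM in Ctrl males (median 190) and from 120 to 170 CPM in Ctrl females (median 136), for -0.44 ± 0.18 (SE; edgeR adjusted p = 0.324). In cKO mice it ran from 131 to 274 CPM in males (median 178.5) and from 104 to 167 CPM in females (median 125), for -0.47 ± 0.17 (SE; adjusted p = 0.135). Every female was below the male mean of her genotype, and the groups overlapped. Hsph1 gave -0.44 ± 0.20 in Ctrl and -0.39 ± 0.18 in cKO mice (SE; adjusted p = 0.361 and 0.268). Without both males, Hsp90aa1 gave -0.30 ± 0.15 and -0.34 ± 0.14 and Hsph1 -0.28 ± 0.16 and -0.26 ± 0.15 (SE).

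In cKO mice Hspa1b had a female-against-male value of -1.97 ± 0.56 (SE; edgeR adjusted p = 0.0599), and all 7 cKO females were below the male mean of 12.4 ± 13.8 CPM (SD, n = 7). That mean includes cKO male 7 at 42.6 CPM, and the male median was 8.03 CPM. The groups overlapped, with 4 of 7 cKO females below every cKO male. The call changed with the method: DESeq2 (adjusted p = 0.0107), a filter at a mean of 5 CPM (0.04) and the fits without Ctrl male 3 (0.0398) or cKO male 3 (0.0348) called it. Without both males it was -1.21 ± 0.37 (SE; adjusted p = 0.103). In Ctrl mice the value was -1.24 ± 0.60 (SE; adjusted p = 0.415), or -0.63 ± 0.40 without both males. Hspa1a gave -1.47 ± 0.75 in Ctrl and -1.95 ± 0.68 in cKO mice (SE; adjusted p = 0.445 and 0.123), or -0.60 and -0.92 without both males. For the mitochondrial pair, Hspd1 gave -0.02 ± 0.06 in Ctrl and 0.07 ± 0.06 in cKO mice, and Hspe1 -0.09 ± 0.09 and 0.02 ± 0.09 (SE). Dnajb1 was the 1 gene above 0 in both genotypes, at 0.12 ± 0.18 and 0.30 ± 0.16 (SE; adjusted p = 0.852 and 0.366). In the same contrasts, cardiomyocyte markers had a median of 0.05 in Ctrl mice with 0 of 7 called by edgeR and of 0.14 in cKO mice with 2 of 7 called. All 5 macrophage markers were below 0 (medians -0.21 in Ctrl and -0.19 in cKO) and all 3 adipocyte markers above 0 (1.304 and 0.753), none of them called. The part of these cell types in the sex values was not tested.

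The wider protein-folding network was described together with immediate-early, circadian and cold-inducible genes, in 13 lists of 153 genes. 2 of the genes (Hspb8 and Stub1) stood in 2 lists, and 148 were tested. These 148 include 20 immediate-early, 16 circadian and 2 cold-inducible genes, which are not part of the folding network. For the mean genotype effect 2 of the 148 were called (1.35%), Hspa9 and Fkbp4, a share near that of all genes (1.33%). Of 18 HSP90 genes and co-chaperones, 15 had a negative mean genotype effect, against 48.4% of all genes tested, and 1 was called: Fkbp4, an immunophilin that carries steroid receptors with HSP90, fell by 0.17 ± 0.04 (SE) on the log2 scale (edgeR adjusted p = 0.0174), a call kept in 9 of 9 alternative settings and 26 of 26 fits without 1 mouse. In males it fell by 0.22 (adjusted p = 0.0486), with 7 of 7 cKO males (325 to 382 CPM) below every Ctrl male (390 to 468 CPM). Fkbp4 is named because it was called, so this separation is no further evidence. No share of all genes separated in this way is given. That male call was kept in 5 of 10 alternative settings and in 11 of 26 fits without 1 mouse, and it was lost without Ctrl male 3 and cKO male 7 (-0.20, adjusted p = 0.0743). In females the values overlapped, from 356 to 413 CPM in Ctrl and from 337 to 372 CPM in cKO.

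All 8 subunits of the TRiC chaperonin had a negative genotype value in each sex (49.75% of all genes did in males and 48.9% in females). Their medians were -0.11 in males and -0.07 in females on the log2 scale, and none was called. The cardiomyocyte markers had like medians, -0.12 in males and -0.08 in females, and their part in the TRiC and Fkbp4 values was not tested. Of the 8 TRiC subunits, 6 had an unadjusted p under 0.05 over both sexes (7.7% of all genes did as lower), and the smallest edgeR adjusted p was 0.0571, for Cct5. By contrast, the 22 endoplasmic reticulum chaperones and unfolded protein response genes had a median of -0.00019 over both sexes, with 11 below 0, 0 called and 0 at an unadjusted p under 0.05 with edgeR. Of 15 other J-domain co-chaperones 9 were below 0 (median -0.02), of 6 other small heat shock proteins tested 4 (median -0.08), of 8 other cytosolic HSP70 and HSP110 genes 5 (median -0.0034), and of 7 BAG family and exchange factor genes 4 (median -0.02), all with 0 called. The 9 autophagy partners of Bag3 had a median of -0.00018 and 0 called. Of 4 heat shock factors and regulators tested, 1 was below 0 and none was called, and Hsf1 itself gave 0.02 ± 0.04 (SE).

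The gene of smallest p in each list showed no further call, and Hspa9, that of the mitochondrial list, is given last. In males these were Hspa1l (0.43 ± 0.27 SE on the log2 scale), Dnajc8 (-0.13 ± 0.04), the small heat shock protein gene Cryab (-0.17 ± 0.06), Bag1 (-0.10 ± 0.04), Ubqln2 (0.14 ± 0.08), Cct5 (-0.15 ± 0.04), Hsf2 (0.10 ± 0.07) and Trib3 (0.23 ± 0.14). Among these the smallest edgeR adjusted p was 0.0892, for Cct5. In females they were Hspa4 (-0.10 ± 0.04 SE), Dnaja2 (-0.08 ± 0.05), Fkbp8 (-0.09 ± 0.04), Hspb3 (0.19 ± 0.08), Bag1 (-0.07 ± 0.04), Ubqln2 (0.11 ± 0.08), Cct2 (-0.09 ± 0.04), Hsf4 (0.21 ± 0.15) and Herpud1 (-0.20 ± 0.12). Each of these had an edgeR adjusted p of at least 0.932. Hspa9 had the smallest p of the mitochondrial chaperones and proteases in both sexes. It gave -0.20 ± 0.05 (SE; edgeR adjusted p = 0.0557) in males and -0.13 ± 0.05 (adjusted p = 0.918) in females.

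3 lists described acute stimuli, temperature and time of day, and none held a gene called between genotypes. Of 20 immediate-early genes tested, the median was 0.07 in males and -0.04 in females, with Ier2 (-0.35 ± 0.12 SE) and Fosb (-0.998 ± 0.577) at the smallest p. Of 16 circadian genes tested, 1 was below 0 in males (median 0.13) and the median in females was 0.03, with Per2 (0.41 ± 0.13 SE) and Npas2 (0.33 ± 0.23) at the smallest p. Cirbp gave -0.15 ± 0.12 (SE) in males and Rbm3 0.07 ± 0.13 in females.

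Sex differences were called for 5 of 148 list genes in cKO mice (3.38%, against 2.7% of all genes) and for 1 of 148 in Ctrl mice (0.676%, against 0.638%), shares near those of all genes, and whether these differ by genotype was tested only as the interaction, which called none. Ahsa2 (-0.29 ± 0.07 SE, edgeR adjusted p = 0.0331) and Wipi1, an autophagosome protein among the partners of Bag3 (-0.26 ± 0.06, adjusted p = 0.0122), were lower in cKO females, and Clpp was higher (0.14 ± 0.04, adjusted p = 0.0372). In Ctrl mice Fkbp5, a glucocorticoid-induced immunophilin, was higher in females (1.18 ± 0.28 SE, adjusted p = 0.0457), at 34.9 to 104 CPM against 18.7 to 49.3 CPM in males. 8 of 26 fits without 1 mouse kept that call. Among circadian genes, Cry1 was higher in cKO females (0.47 ± 0.12 SE, adjusted p = 0.0294) and Clock lower (-0.27 ± 0.07, adjusted p = 0.0406). Without Ctrl male 3 and cKO male 7, Wipi1 and Cry1 kept their calls (edgeR adjusted p = 0.0111 and 0.0387), whereas Ahsa2 (0.0656), Clpp (0.0844), Clock (0.0957) and Fkbp5 (0.0626) lost theirs. With GC content and transcript length adjusted for, Clpp was at 0.070 (edgeR adjusted p = 0.364) and Clock at -0.20 (0.118), neither called. Clpp was called in 6 of 10 alternative settings and 16 of 26 fits without 1 mouse, Clock in 8 and 17, Ahsa2 in 9 and 20, Cry1 in 10 and 20, and Wipi1 in 10 and 26. The time of day of tissue collection is not given in the sources used here.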

How the data were processed

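RNA was taken from about 20 mg of left ventricle, and 500 ng per mouse entered a poly-A selected, stranded library, per the labels' protocols. Per the submitters' processing notes, the authors used FastQC 0.74, cutadapt 4.6, STAR 2.7.11a, HTSeq and the build GRCm39 to make the deposited counts, which are whole reads per gene and not normalized. The settings, strand option and annotation release are not given in the sources used here, so reads shared by near-identical genes may be split or dropped. A limit of 3 counts corresponds to 0.0972 to 0.208 CPM. No column was left unused (0), and no library was a duplicate of another of its group (72 pairs compared). Pairs across groups were not compared.

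The counts of 26 mice were fitted in R 4.3.3 with edgeR 4.0.16 (quasi-likelihood test, robust, TMM factors, filterByExpr with a minimum count of 10, 1 mean per group). The Benjamini-Hochberg adjustment ran over 15357 genes, and called means an adjusted p below 0.05. SE is the size of the log2 fold change over the square root of F. Contrasts were cKO against Ctrl in each sex, their mean, their interaction, and female against male in each genotype. Alternatives used DESeq2 1.42.0, limma 3.58.1 (voom with sample quality weights), other filters, fewer groups, a replicate block, summed Hspa1a and Hspa1b and each mouse left out. Leaving out Ctrl male 3 and cKO male 7 together, and adjusting for GC content and transcript length (splines, 4 degrees of freedom), were chosen after seeing the data. Correlations used log2 CPM with a prior count of 2. On simulated counts for the comparison of males (15114 genes), 6%, 68% and 93% of genes changed by 0.25, 0.5 and 1 on the log2 scale were recovered, with 1.52% false calls.

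The 10 genes, the lists and the markers were chosen with earlier results of these data known, so no list is independent evidence. Named beside the 10 were Ppp2r2a, every list gene called in a contrast, the gene of smallest p of each list in the genotype contrast of each sex, Hsf1, Cirbp and Rbm3, and the 5 genes most and least alike in pattern. Sequences are RefSeq promoter windows of GRCm38.p6, another build than that of the counts, and transcript lengths and exons are from GENCODE M21. Figures were drawn with matplotlib 3.10.9 and statistics computed with Python 3.11.15, numpy 2.4.6, scipy 1.17.1 and pandas 2.3.3.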

Additional observations from a re-analysis of the deposited data

Results flagged for a closer look

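Among 52 groups of 6 or 7 mice examined for a value apart from the rest (13 genes in 4 groups), 6 held one. The rule flags about 1 in 20 groups of independent, normally spread values. The genes share mice, and Hspa1a and Hspa1b share much of their sequence, so that rate does not apply directly here. In Ctrl male 3, Hspa1a stood at 19.4 CPM, Hspa1b at 21.5 CPM and Hsph1 at 150.0 CPM, each the highest of the Ctrl males with a wide gap to the next mouse. In cKO male 7, Hspa1a stood at 40.3 CPM and Hspa1b at 42.6 CPM, each the highest of the cKO males. Hspa9 in Ctrl female 6 was the lowest of the Ctrl females at 696 CPM.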

How the results depend on the processing

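Of the values for single genes, 652 kept their direction and side of the threshold, 36 reversed, 5 gained a call and 1 lost it; the cause was not tested. For males, the genes called numbered 399 with DESeq2, 211 with voom, 31 with no filter, 164 at a mean of at least 5 CPM, 33 without Ctrl male 3 and cKO male 7, 11 with the GC and length adjustment and 4 to 122 without 1 mouse. For females they numbered 9 with DESeq2, 2 at 5 CPM, 1 with only the compared groups and 3 to 7 without 1 mouse. Between sexes, Ctrl mice gave 253 (DESeq2), 61 (only the compared groups) and 54 to 125 (1 mouse left out), and cKO mice 707 (DESeq2), 688 (voom), 244 (no filter), 218 (without the 2 males) and 163 to 548. The mean effect gave 549 (DESeq2), 325 (voom), 113 (no filter), 114 (GC and length) and 96 to 349. Of the 10 genes, 1 was called in males by DESeq2, voom and the 5 CPM filter (0 to 1 without 1 mouse), 1 between cKO sexes by DESeq2 and the 5 CPM filter (0 to 1), and 0 for the mean effect with GC and length (0 to 1).

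Whether the replicate numbers pair the mice was not tested. Between Ctrl and cKO males the mean correlation of same-numbered mice was -0.0259, against 0.0043 for differently numbered mice. Between Ctrl and cKO females it was 0.118 (lowest -0.0969), against -0.0186. With the replicate block 3 genes were called in females, Hspa1a (-0.11) and Hspb1 (-0.054) reversed there, and Hspa1b reversed in the mean effect (-0.13). Voom reversed Hspa1a (-0.092) and Dnajb1 (-0.065) in females, Hspa8 in the interaction (-0.00012), and Hspa1b (-0.037) and Dnajb1 (-0.075) in the mean effect. Without the 2 males, Hspd1 between Ctrl sexes (0.013) and Hspb1 between cKO sexes (0.049) reversed, and with GC and length Hspd1 (0.0093) and Hspe1 (-0.015).

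Without 1 mouse, values in males ran from -0.28 to 1.61 for Hspa1a, -0.10 to 1.27 for Hspa1b, -0.21 to 0.080 for Hsph1, -0.14 to 0.031 for Dnajb1 and -0.19 to 0.066 for Hsp90aa1. In females they ran from -0.21 to 0.48 for Hspa1a, -0.30 to 0.066 for Hspa1b, -0.11 to 0.10 for Hsph1, -0.016 to 0.19 for Dnajb1, -0.038 to 0.072 for Hspb1 and -0.0017 to 0.094 for Bag3. For the interaction they ran from -1.34 to 0.55 (Hspa1a), -1.35 to 0.030 (Hspa1b), -0.034 to 0.10 (Hspa8), -0.11 to 0.18 (Hsph1), -0.17 to 0.095 (Hsp90aa1) and -0.054 to 0.042 (Bag3). Between sexes they ran from -0.057 to 0.017 for Hspd1 in Ctrl, and from -0.11 to 0.051 for Hspb1 and -0.024 to 0.071 for Hspe1 in cKO. For the mean effect they ran from -0.00042 to 0.94 (Hspa1a), -0.085 to 0.60 (Hspa1b), -0.12 to 0.027 (Hsph1) and -0.045 to 0.067 (Dnajb1).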
